A study of Mus musculus with 8 samples.

Results

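The 48 genes described here encode proteins that open replication origins, build the replication fork and copy DNA, or that act beside these steps. Among the latter are the inhibitor of licensing, a uracil glycosylase and the chromatin assembly genes. The list was drawn up with earlier results of these data known, so the shares called below do not come from an independent choice of genes. Each gene was listed by symbol for its role, and all 48 were found among the 19909 genes of the deposited table. They were grouped by step into licensing (6 genes), firing (9), polymerases and primase (9), the sliding clamp and its loaders (9), single-strand binding and joining of fragments (6), fork protection (4), chromatin assembly (4) and uracil removal (1). RNA sequencing was carried out on purified haematopoietic stem cells (HSCs) of mouse bone marrow, isolated at steady state. Every animal in every group, young controls included, carried the Gfplc3/Gfplc3 genotype, which makes LC3, a protein that coats autophagosomes, as a fusion with green fluorescent protein (GFP); GFP is lost when autophagosomes are broken down. AThi HSCs (autophagy-high, 3 libraries) were the 33% with the lowest GFP signal from old mice of more than 24 months, ATlo HSCs (autophagy-low, 3 libraries) were the 33% with the highest signal from the same 3 old mice, and young HSCs (2 libraries) were unfractionated cells of mice aged 8 to 12 weeks. The study asked how transcripts of old HSCs differ with autophagy, and how each old fraction differs from young HSCs. The middle of the GFP range of old HSCs was not analysed here, and in any contrast with young HSCs the gate and the age cannot be told apart.

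DNA replication begins with the origin recognition complex (ORC), on which CDC6 and CDT1 load the MCM helicase, a step called licensing. The kinase CDC7 with its partner DBF4, together with TICRR, then recruits CDC45 and the GINS complex. MCM10 activates the assembled helicase, and the helicase fires. Polymerase alpha with primase lays down primers, polymerases epsilon and delta extend them on the leading and lagging strands, and the clamp PCNA, placed by loader complexes, holds the polymerases to the template. Adult HSCs are mostly quiescent, and many genes of this machinery are transcribed in late G1 and S phase under E2F transcription factors. In bulk libraries such as these, fewer cells in cycle and less of an mRNA per cell cannot be told apart.

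The libraries held 33960216, 40498336 and 45830216 reads in AThi, 54512285, 57714738 and 61341946 reads in ATlo, and 44021141 and 45590508 reads in young HSCs, so ATlo was the deepest group. The 3 libraries that carry the tag 12 in the deposited table stood apart by the RNA of B cell genes. Their summed signal of 4 B cell genes was 23263 (AThi), 9520 (ATlo) and 10235 (young) normalized counts, against at most 987 in the other 5 libraries, and counts of members called are given below with and without them. The 12 HSC markers were detected in each library and summed to between 145534 and 169172 normalized counts in AThi, between 106046 and 127733 in ATlo, and 143409 and 149739 in young HSCs. Of these 12, Procr, Mecom, Hlf and Mllt3 were higher in AThi than in ATlo and 0 were lower. The 4 multipotent progenitor genes in the table (of 6 listed) summed to between 2928 and 4084 in AThi, between 4048 and 5194 in ATlo, and 5401 and 7052 in young, with Cd48 and Mpo at 0 in some library. None of these 4 was called between AThi and ATlo. Flt3 was lower in both old fractions than in young, and Cd34 was lower in AThi than in young. In the other 7 lists of blood and stromal markers, Klrb1c of the T and NK cell list was the single gene called between AThi and ATlo, and was higher in AThi. These lists were not complete in the table, which held 3 of 6 monocyte, 4 of 7 B cell, 3 of 7 T and NK cell and 3 of 6 stromal genes. It also held 6 of 8 granulocyte, 7 of 8 megakaryocyte and platelet, and 7 of 8 erythroid genes. The granulocyte list summed to between 5490.4 and 6992 in AThi, between 4083 and 5661 in ATlo, and 2656 and 2758 in young. The part of any of these markers in the results was not tested.

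The replication genes were lower in the HSCs with the lowest GFP-LC3 signal. In the authors' deposited table, 35 of 48 were called lower and 0 higher in AThi against ATlo (adjusted p below 0.05), where 4.43% of all 17908 genes tested were lower and 3.47% higher. The log2 fold change was negative for all 48, from -2.47 for Chtf18 to -0.09 for Chaf1b, with a median of -1.17, against 0.03 over all genes tested. At an unadjusted p below 0.05, 45 were lower and 0 higher, and the share of all genes at that threshold is not given here. Every AThi library lay below every ATlo library for 41 of the 48, a pattern found in 10.9% of the 19909 genes. Ribosomal RNA (mt-Rnr1, mt-Rnr2 and Rn18s) took 36.1%, 31.0% and 34.9% of reads in the AThi libraries, against 31.2%, 27.1% and 34.4% in their ATlo partners, and its part in the result was not tested. The groups overlapped for Dbf4, Gins3, Gins4, Pold3, Rfc3, Dna2 and Chaf1b. For 45 of the 48, AThi was lower in all 3 old pairs that share a tag, a pattern found in 19.4% of all genes. The exceptions were Gins4, Rfc3 and Chaf1b, each in 1 pair. The median difference within a pair was -1.09, -1.30 and -1.02 on the scale of log2(normalized count + 1). With the quasi-likelihood test of edgeR, 0 were higher, 21 of the 35 were called lower and 14 were not (Cdt1, Gmnn, Mcm10, Gins1, Pold1, Rfc1, Rfc2, Rfc5, Dscc1, Rpa1, Rpa3, Dna2, Timeless and Slbp). Without the 3 libraries tagged 12, an alternative chosen after seeing the data, 32 were called lower and 31 of these were among the 35; the calls of Dscc1 (adjusted p = 0.12), Fen1 (0.050), Rfc1 (0.092) and Rfc5 (0.077) ended and that of Cdc6 (0.044) was added. Leaving out single libraries gave between 31 and 38 calls, and 30 of the 35 genes were called each time. Cdc6 (adjusted p = 0.0056), Orc2 (0.012) and Gins3 (0.0056) passed without AThi tagged 12, and Gins2 (0.031), Chaf1a (0.0044) and Dbf4 (0.001) without ATlo tagged 10. With tags as a block, which the deposited test lacks, 38 were lower in DESeq2 and 20 in edgeR. Over all genes, the block gave 986 lower in DESeq2 and 228 in edgeR. The authors' deposited table had 793 lower, and edgeR without the block had 220. Leaving out single old libraries gave between 486 and 855 lower over all genes. Of the 21 called by edgeR, the block in edgeR ended the calls of Cdc45 (adjusted p = 0.052), Fen1 (0.062), Rpa2 (0.065), Pole2 (0.067) and Chtf18 (0.11). It added those of Cdt1 (adjusted p = 0.047), Mcm10 (0.04997), Dna2 (0.044) and Slbp (0.043).

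**Figure D1:**
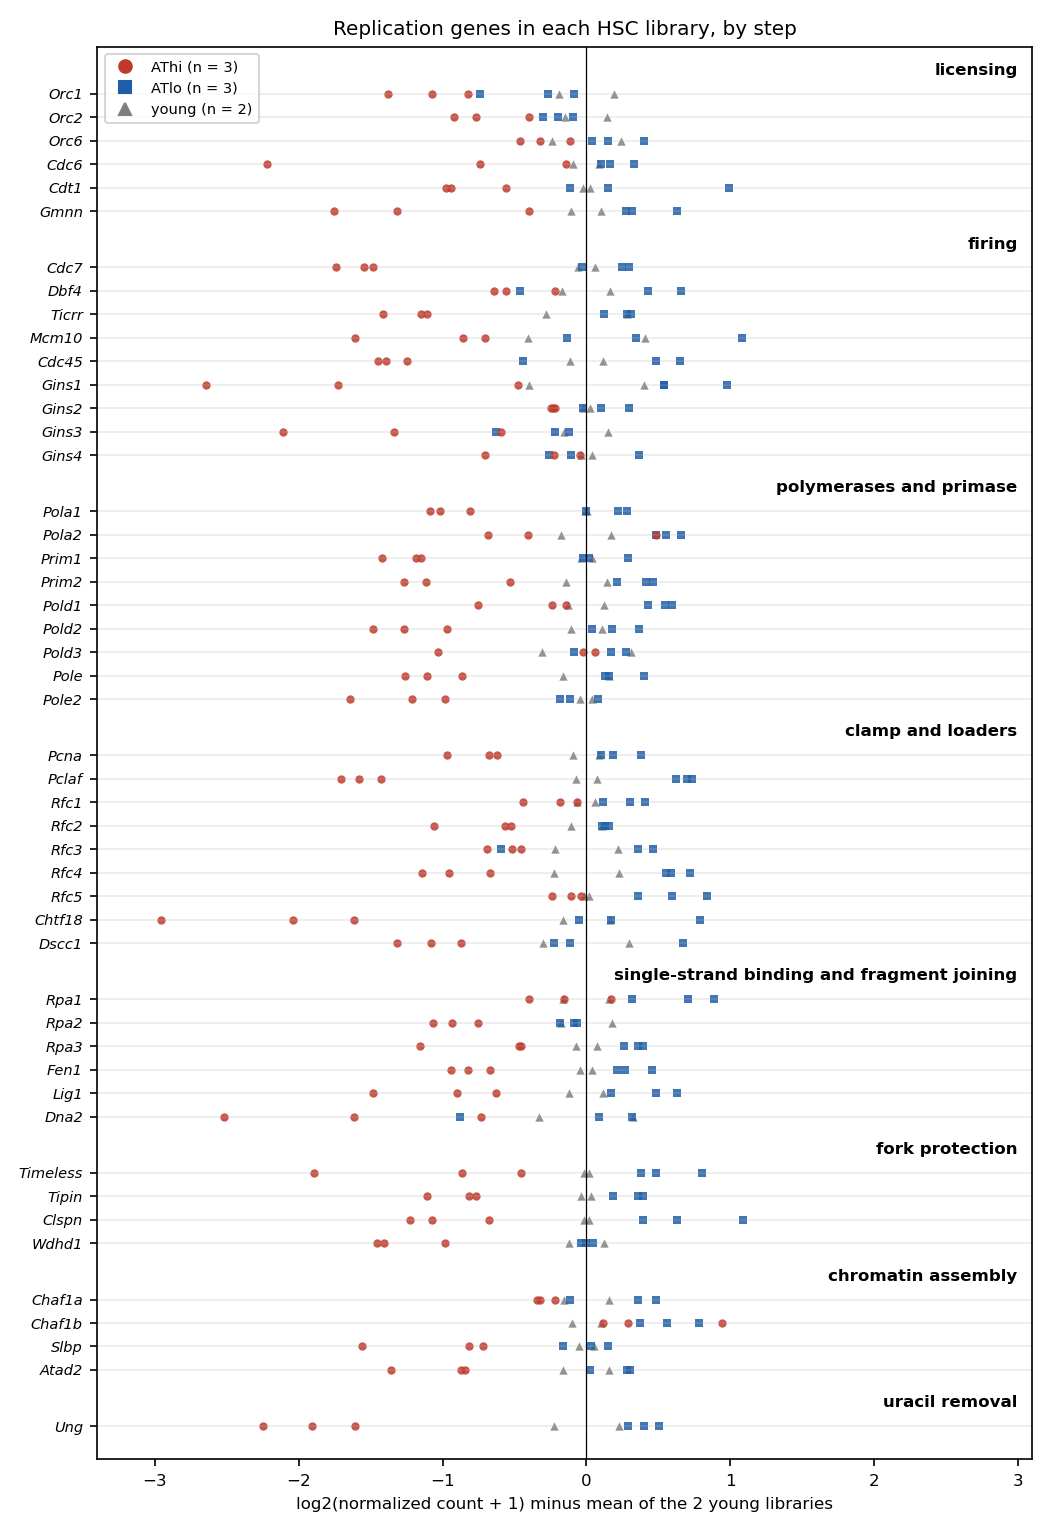
Each row is 1 of the 48 genes, by step, and each point is 1 library (red circles AThi, blue squares ATlo, grey triangles young); the x axis is the log2 normalized count, with a pseudocount of 1, minus the mean of the 2 young libraries. AThi points lie left of ATlo points without overlap for 41 of the 48 genes.

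Against young HSCs, the AThi fraction was the one that stood apart. In the authors' deposited table, 26 of 48 genes were lower and 0 higher in AThi than in young, against 1.91% lower and 3.13% higher of 19064 genes tested, and the median log2 fold change was -0.95. At an unadjusted p below 0.05, 34 were lower and 0 higher in AThi than in young, and edgeR called 0 higher. Over all genes, edgeR called 72 lower and 168 higher in AThi than in young, against 365 and 596 in the authors' deposited table. ATlo against young had 2 genes higher, Pclaf and Rfc5, and 0 lower, against 2.37% higher and 1.98% lower of 18678 genes tested, so the share of these genes called, 4.17%, was near the background. At an unadjusted p below 0.05, 7 of the 48 were higher and 0 lower in ATlo against young, and edgeR called 0. The share of all genes at that unadjusted threshold is not given here, so the unadjusted counts against young have no background beside them. With tags as a block in DESeq2, 5 were higher, with Lig1, Clspn and Chaf1b added. Over all genes that block called 546 higher, against 442 in the authors' deposited table. Young and old libraries that share a tag come from different animals, so this block is not one for the mouse. The median log2 fold change of ATlo against young was 0.24, with 41 of 48 values positive. The 3 contrasts share their libraries, so these values are not independent of each other. For 40 of the 48 genes the young mean lay above the AThi mean and below the ATlo mean, an order found in 17.8% of all genes. The young mean lay above the ATlo mean for Orc1, Orc2, Gins3, Pole2, Rpa2, Dna2 and Wdhd1, and below the AThi mean for Chaf1b. The young group has 2 libraries, and the count of 26 was 16 without the young library tagged 11 and 17 without that tagged 12; it was 14 without the 3 libraries tagged 12 and 14 with edgeR. Each setting that leaves 1 young library takes its spread from the old groups and assumes that the lone library varies like them. Leaving out 1 young library ended the calls of Orc1, Orc2, Cdc45, Prim2, Rfc2, Rfc4, Chtf18, Fen1, Lig1, Dna2, Clspn and Slbp in 1 or both cases. Without the 3 libraries tagged 12, the calls of Ticrr (adjusted p = 0.097), Pole2 (0.19), Rpa2 (0.23) and Tipin (0.092) against young ended as well. The young library tagged 11 held 94090 reads of Xist, the X-inactivation RNA, against 3534 to 5553 in the 3 libraries tagged 12 and 41 to 218 in the other 4.

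**Figure D2:**
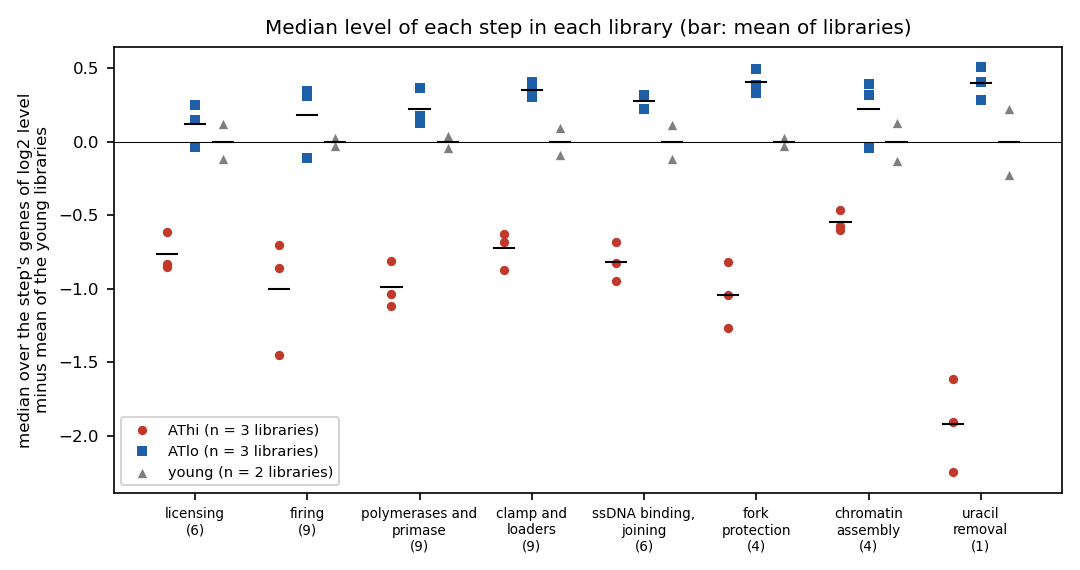
The y axis is the median over a step's genes of the log2 normalized count minus the young mean, with 1 point per library and bars at the mean of a group; the x axis gives the steps with their number of genes. The 3 AThi libraries lie lowest in each of the 8 steps.

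Promoters were examined for letters bound by E2F factors and by other regulators of cell cycle genes, because the genes moved together. RefSeq promoter windows (GRCm38.p6, 250 bases before to 50 after the start) were available for 38 of the 48. Of these 38, 12 held at least 1 of TTTCCCGC, TTTCGCGC, TTTGCCGC or TTTGGCGC on either strand (31.6%), against 704 of 27025 genes with a window of the same length (2.60%). Among genes with a window, the letters stood in 7 of 27 called lower in AThi against ATlo (25.9%) and in 5 of 11 not called (45.5%). The 38 genes have 44 windows, and a gene was counted if any of its windows held the letters. CCAAT was present in 55.3% of the 38 and in 41.1% of all genes with a window. TTTGAA, the letters of the cell cycle homology region, was present in 15.8% and 20.2%, in the same order. Of 33 other replication genes with a window, from a list outside the 48 described below, 11 held the E2F letters (33.3%). CCAAT was present in 51.5% of these 33 and TTTGAA in 21.2%. The share with E2F letters was thus not particular to the 48 genes. None of the 13 E2F matches in windows of the 48 genes overlapped a match to either of the other motifs. Such a match is a description of the letters and not a bound site, and its absence says only that the letters are not in this window.
Windows are printed below for 5 genes that span the range of responses, 5′ to 3′ on the gene's strand, with E2F matches in capitals. Pclaf and Clspn were strongly lower in AThi and hold a match, Pole2 was lower and its match lies after the start, Orc1 holds a match and was not called between the old fractions, and Ung was among the most lowered and holds none. Each printed match reads as an E2F motif on the opposite strand. Positions are counted with the first transcribed base as 1, to the leftmost base of the match. The Pclaf window is chr9:65890073-65890372 on the plus strand, with TTTCCCGC at -5. The Clspn window is chr4:126556730-126557029 on the plus strand, with TTTCGCGC at 22. The Pole2 window is chr12:69228141-69228440 on the minus strand, with TTTGGCGC at 11. The Orc1 window is chr4:108579204-108579503 on the plus strand, with TTTCGCGC at -27. The Ung window is chr5:114130185-114130484 on the plus strand.
Pclaf: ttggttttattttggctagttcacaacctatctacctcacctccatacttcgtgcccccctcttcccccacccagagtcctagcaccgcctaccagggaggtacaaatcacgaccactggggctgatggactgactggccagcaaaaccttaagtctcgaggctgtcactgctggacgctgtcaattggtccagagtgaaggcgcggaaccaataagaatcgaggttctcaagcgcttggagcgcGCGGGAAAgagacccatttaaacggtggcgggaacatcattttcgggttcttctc
Clspn: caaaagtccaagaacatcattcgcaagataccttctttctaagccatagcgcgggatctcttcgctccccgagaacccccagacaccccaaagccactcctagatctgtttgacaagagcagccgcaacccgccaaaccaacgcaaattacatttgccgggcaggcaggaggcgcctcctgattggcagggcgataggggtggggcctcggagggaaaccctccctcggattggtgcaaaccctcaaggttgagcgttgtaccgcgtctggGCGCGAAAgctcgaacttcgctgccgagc
Pole2: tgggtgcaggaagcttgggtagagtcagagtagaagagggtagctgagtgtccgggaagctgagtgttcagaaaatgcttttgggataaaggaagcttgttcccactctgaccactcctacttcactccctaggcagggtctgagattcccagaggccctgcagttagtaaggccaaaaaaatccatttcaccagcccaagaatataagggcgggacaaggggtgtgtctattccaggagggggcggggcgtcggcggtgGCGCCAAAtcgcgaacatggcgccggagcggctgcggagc
Orc1: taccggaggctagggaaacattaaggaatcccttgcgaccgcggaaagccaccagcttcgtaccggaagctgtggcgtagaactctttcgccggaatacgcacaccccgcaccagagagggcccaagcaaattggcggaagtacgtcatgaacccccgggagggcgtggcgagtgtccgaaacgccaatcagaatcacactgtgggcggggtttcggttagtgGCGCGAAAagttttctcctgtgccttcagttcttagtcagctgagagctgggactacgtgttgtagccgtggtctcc
Ung: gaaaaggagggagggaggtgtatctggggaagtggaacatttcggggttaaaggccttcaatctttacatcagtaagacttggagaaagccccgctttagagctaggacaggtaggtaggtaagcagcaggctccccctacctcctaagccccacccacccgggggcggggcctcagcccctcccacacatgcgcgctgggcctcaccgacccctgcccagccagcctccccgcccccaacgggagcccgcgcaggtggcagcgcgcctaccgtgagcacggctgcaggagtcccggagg

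Among licensing genes, CDT1 and its inhibitor had lower mRNA, while Cdc6 and 3 ORC subunits did not pass the test. Of 6 genes, 2 were called lower in AThi against ATlo, and the median log2 fold change was -0.87. Cdt1, which brings the MCM helicase to ORC, had 647, 843 and 631 normalized counts in AThi, against 1379.7, 2472 and 1149 in ATlo and 1222 and 1261 in young. The ATlo value of the library tagged 11 was the highest, and the groups of old cells did not overlap. Its log2 fold change in the authors' deposited table was -1.24 ± 0.28 (SE, adjusted p = 0.00057). Gmnn encodes geminin, the inhibitor that binds CDT1 to prevent a further round of licensing, and had 616, 240.0 and 325 normalized counts in AThi, against 988, 1263 and 1012 in ATlo and 756 and 875 in young. The AThi libraries all lay below both other groups, and the deposited table gave -1.47 ± 0.33 (SE, adjusted p = 0.00035) for AThi against ATlo in the authors' fit.

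Cdc6, the ATPase that loads the helicase with CDT1, had 123, 345 and 523 normalized counts in AThi, against 726, 618 and 646 in ATlo and 613 and 541 in young. The AThi library tagged 10 was far below the other AThi libraries, and in the authors' deposited table the log2 fold change of -1.0 ± 0.42 (SE, adjusted p = 0.13) did not pass. With tags as a block the adjusted p was 0.027 in DESeq2 and 0.25 in edgeR. Orc1, the ORC subunit that cycles, had 262, 211 and 312 normalized counts in AThi, against 330.0, 521 and 459 in ATlo and 632 and 484 in young. Orc2, a core ORC subunit, had 1041, 936 and 1348 normalized counts in AThi, against 1666, 1437 and 1551 in ATlo and 1962 and 1604 in young. For both, all AThi libraries were below all ATlo libraries, and the young mean was the highest. In the authors' deposited table Orc1 and Orc2 did not pass in AThi against ATlo, at -0.74 (adjusted p = 0.11) and -0.48 (adjusted p = 0.098), and were lower in AThi than in young, at -1.09 (adjusted p = 0.024) and -0.69 (adjusted p = 0.03); edgeR called neither. Orc6, the subunit least like the others, had 626, 690.4 and 797 normalized counts in AThi, against 956, 1140.0 and 889 in ATlo and 1018 and 731 in young. It passed in no contrast of the authors' deposited table, with -0.50 (adjusted p = 0.15) for AThi against ATlo. Reads of Orc2 carry a limit, since 29.8% of its exonic bases are overlapped on the opposite strand by Nif3l1 (log2 fold change -0.31, not called), and whether reads were counted by strand is not known.

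Among firing factors, the kinase and the recruiters were lower while 3 of 4 GINS subunits did not pass. Of 9 genes, 5 were lower in AThi against ATlo, and the median log2 fold change was -1.46. Cdc7, the kinase that phosphorylates the loaded helicase, had 233, 222 and 195 normalized counts in AThi, against 638, 774 and 802 in ATlo and 678 and 626 in young. The 3 AThi values lay close together, far below every other library, and the authors' deposited table gave -1.77 ± 0.22 (SE, adjusted p = 4.7e-13) against ATlo and -1.59 ± 0.25 (SE, adjusted p = 1.4e-08) against young. Dbf4, its activating partner, had 676, 639 and 857 normalized counts in AThi, against 725, 1342 and 1572 in ATlo and 888 and 1118 in young. The ATlo library tagged 10 was within the AThi range, and the gene did not pass in the authors' deposited table (-0.74, adjusted p = 0.094); without that library its adjusted p was 0.001. Ticrr, which brings TOPBP1 to the helicase, had 881, 859 and 714 normalized counts in AThi, against 2071, 2358 and 2315 in ATlo and 1568 and 2311 in young. AThi lay below both other groups, which overlapped each other, and the authors' deposited table gave -1.46 ± 0.19 (SE, adjusted p = 8.7e-12) against ATlo and -1.25 ± 0.21 (SE, adjusted p = 6.6e-07) against young.

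Cdc45, a subunit of the active helicase, had 268, 279 and 309 normalized counts in AThi, against 541, 1151 and 1023 in ATlo and 793 and 677 in young. Its AThi libraries were close together, the ATlo library tagged 10 was lowest of its group, and the authors' deposited log2 fold change was -1.67 ± 0.30 (SE, adjusted p = 3.1e-06) against ATlo and -1.37 ± 0.34 (SE, adjusted p = 0.0022) against young. Mcm10, which activates the assembled helicase, had 218, 368 and 410.1 normalized counts in AThi, against 609, 1414 and 848 in ATlo and 504 and 885 in young. It was lower in AThi than in ATlo in the authors' deposited table (-1.53, adjusted p = 0.0016), a call that ended without the ATlo library tagged 11 (adjusted p = 0.053).

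The 4 GINS subunits form 1 complex; Gins1 passed the test and the other 3 did not, and the difference between subunits was not tested. Gins1 had 70.3, 320.4 and 134 normalized counts in AThi, against 647, 879.6 and 649 in ATlo and 588 and 337 in young. It was lower in AThi against ATlo by the authors' deposited table (-2.05 ± 0.47 SE, adjusted p = 0.00065), with a wide spread among AThi libraries and 48 reads in the lowest. Gins2 had 2794, 2814 and 2766 normalized counts in AThi, against 3228, 3520.1 and 4030.1 in ATlo and 3218 and 3338 in young. The AThi values were nearly equal and below each ATlo value, and the authors' deposited value of -0.36 ± 0.13 (SE, adjusted p = 0.052) narrowly missed the threshold. Gins3 had 116, 198 and 333 normalized counts in AThi, against 432, 325 and 462 in ATlo and 452 and 559 in young. Gins4 had 934, 589 and 821 normalized counts in AThi, against 890.2, 803 and 1239 in ATlo and 986 and 936 in young. The old fractions overlapped for Gins3 and Gins4, and neither passed in the authors' deposited table (-0.91, adjusted p = 0.14, and -0.32, adjusted p = 0.53). Gse1 overlaps 67.3% of the exonic bases of Gins2 on the opposite strand, and its own log2 fold change was -0.04. Per kilobase of exon, the mean level in ATlo was 877 normalized counts for Gins2 (range 788 to 984), 724 for Gins4 (range 595 to 919), 478 for Gins1 (range 427 to 580.2) and 149.9 for Gins3 (range 119.9 to 170.5). Gins2 and Gins4 overlapped in this order, and the ranges of Gins1 and Gins3 did not overlap each other. Gins1 was the most lowered of the 4 and neither the most nor the least abundant of them.

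**Figure D3:**
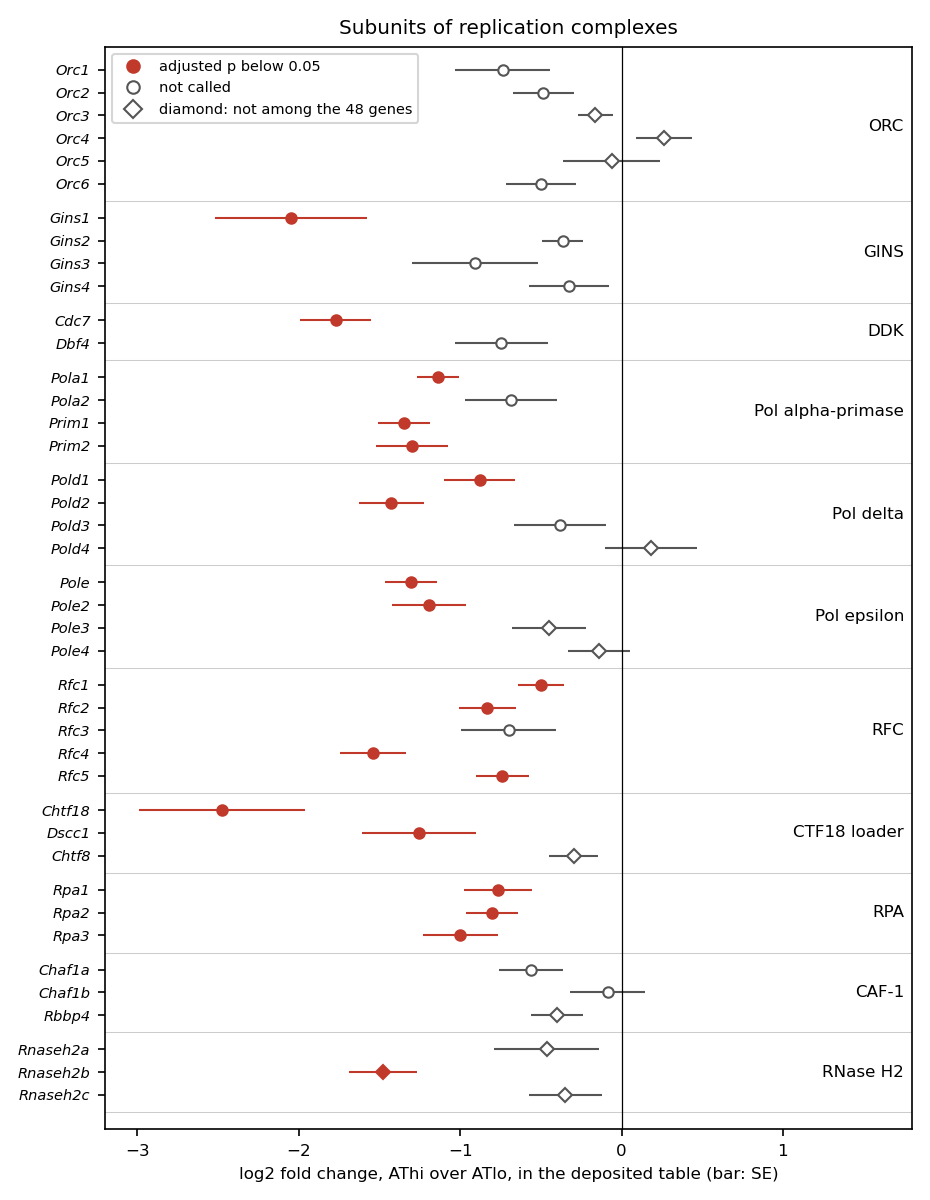
The x axis is the log2 fold change of AThi over ATlo in the authors' deposited table, with bars for its SE, for subunits grouped by complex (DDK is CDC7 with DBF4); filled points passed the adjusted p of 0.05, and diamonds are genes outside the 48. All 6 ORC subunits are open, and GINS, the polymerases and the loaders hold both filled and open points.

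Most genes of the priming and copying enzymes were lower in AThi. Of 9 polymerase and primase genes, 7 were lower in AThi against ATlo, and the median log2 fold change was -1.19. Pola1, the catalytic subunit of polymerase alpha, had 3199.7, 3352 and 3876 normalized counts in AThi, against 6781, 8265 and 7927 in ATlo and 6825 and 6770.1 in young. The AThi values lay together well below all others, and the authors' deposited table gave -1.14 ± 0.13 (SE, adjusted p = 1.9e-15) against ATlo and -0.97 ± 0.15 (SE, adjusted p = 4.5e-09) against young. Prim1, the catalytic primase subunit, had 919, 779.6 and 939 normalized counts in AThi, against 2051, 2117 and 2553 in ATlo and 2140.0 and 2033 in young. Young and ATlo overlapped, AThi did not overlap either, and the authors' deposited values were -1.35 ± 0.16 (SE, adjusted p = 3.6e-14) against ATlo and -1.25 ± 0.18 (SE, adjusted p = 6.7e-10) against young. Prim2, the regulatory primase subunit, was lower in AThi against ATlo in the authors' deposited table (-1.30, adjusted p = 5.6e-07). Pola2, the accessory subunit of polymerase alpha, had 1493, 808 and 665 normalized counts in AThi, against 1498, 1690.2 and 1569.6 in ATlo and 1205 and 947 in young. The AThi library tagged 10 was close to the lowest ATlo library, and the gene did not pass in the authors' deposited table (-0.68, adjusted p = 0.13). With tags as a block the adjusted p was 0.021 in DESeq2 and 0.21 in edgeR, and without that AThi library it was 1.4e-05 in DESeq2.

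Pole, the catalytic subunit of polymerase epsilon, had 2077, 1577 and 1753 normalized counts in AThi, against 4127, 4222 and 4994 in ATlo and 3378 and 4224 in young. The AThi libraries were all below the young and ATlo libraries, and the authors' deposited table gave -1.30 ± 0.16 (SE, adjusted p = 6.6e-13) against ATlo and -1.08 ± 0.18 (SE, adjusted p = 4.3e-07) against young. Pole2, the subunit that ties polymerase epsilon to the helicase, was lower in AThi in the authors' deposited table, with a log2 fold change of -1.19 (adjusted p = 1.6e-05) against ATlo and -1.26 (adjusted p = 6.7e-05) against young. Pold2, the polymerase delta subunit that bridges its catalytic and accessory parts, had 435, 505 and 621 normalized counts in AThi, against 1381, 1254 and 1569.6 in ATlo and 1130.2 and 1314 in young. ATlo and young overlapped and AThi was apart from both, with authors' deposited values of -1.43 ± 0.20 (SE, adjusted p = 4.8e-10) and -1.23 ± 0.23 (SE, adjusted p = 5.8e-06), against ATlo and against young in that order. Pold1, the catalytic subunit of polymerase delta, was lower against ATlo (-0.88, adjusted p = 0.0022) and did not pass against young (-0.36, adjusted p = 0.6) in the authors' deposited table. Pold3, an accessory subunit, had 836, 1687 and 1786 normalized counts in AThi, against 1614, 1927 and 2076 in ATlo and 2118 and 1380.2 in young. The old fractions overlapped and the authors' deposited value of -0.38 (adjusted p = 0.51) did not pass.

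The remaining subunits of these complexes, outside the 48, did not pass in AThi against ATlo. In the authors' deposited table the log2 fold change was -0.16 (adjusted p = 0.46) for Orc3, 0.26 (adjusted p = 0.44) for Orc4 and -0.06 (adjusted p = 0.95) for Orc5. It was 0.18 (adjusted p = 0.82) for Pold4, -0.45 (adjusted p = 0.25) for Pole3 and -0.14 (adjusted p = 0.78) for Pole4 in the authors' deposited table. Against young, Orc3 was lower in AThi there (-0.46, adjusted p = 0.0063), and Orc4, Orc5, Pold4, Pole3 and Pole4 did not pass. Per kilobase of exon, Orc3 had 691 normalized counts in AThi and 772 in ATlo, the highest mean ORC level in both, while Orc1 had 75.2 and 125. Pole3 and Pole4, the histone-fold subunits, had 442 and 507 in AThi and 603 and 559.5 in ATlo per kilobase, above Pole at 162 in AThi and 399 in ATlo.

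The clamp genes included the most significantly lowered of the 48. Of 9 genes of the clamp and its loaders, 8 were lower in AThi against ATlo, and the median log2 fold change was -0.98. Pclaf, a small protein bound to PCNA, had 441, 535 and 481 normalized counts in AThi, against 2401, 2217 and 2342 in ATlo and 1367 and 1515 in young. The 3 groups did not overlap, with AThi lowest, young intermediate and ATlo highest. The authors' deposited log2 fold change was -2.25 ± 0.15 (SE, adjusted p = 1.9e-45) for AThi against ATlo, -1.57 ± 0.17 (SE, adjusted p = 2e-17) for AThi against young and 0.69 ± 0.17 (SE, adjusted p = 0.0022) for ATlo against young. The last of these did not pass when young tagged 11 was left out (adjusted p = 0.19), when the 3 libraries tagged 12 were left out (0.24) or with edgeR (0.12). Pcna, the sliding clamp, had 4745, 5807 and 6028 normalized counts in AThi, against 9959, 10591 and 12107 in ATlo and 8724 and 9898 in young. AThi lay below both other groups, and the authors' deposited table gave -0.98 ± 0.14 (SE, adjusted p = 3.6e-10) against ATlo and -0.75 ± 0.15 (SE, adjusted p = 8.5e-05) against young. Its reads may be shared with the pseudogene Pcna-ps2, which was also lower in AThi against ATlo (log2 fold change -0.94), so the level of Pcna is uncertain.

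The canonical loader, replication factor C, has a large subunit and 4 small ones. Rfc4 was the most lowered and had 647, 467 and 531 normalized counts in AThi, against 1701, 1553 and 1518 in ATlo and 882 and 1206 in young. The 3 groups did not overlap, and the authors' deposited values were -1.54 ± 0.20 (SE, adjusted p = 2e-11) against ATlo and -0.93 ± 0.23 (SE, adjusted p = 0.0023) against young. Rfc5 had 1414, 1548 and 1626 normalized counts in AThi, against 2531, 2142 and 2988 in ATlo and 1649 and 1692 in young. AThi lay just below young and ATlo above both, and the authors' deposited table gave -0.74 ± 0.16 (SE, adjusted p = 0.00035) for AThi against ATlo, -0.13 (adjusted p = 0.89) for AThi against young and 0.61 (adjusted p = 0.026) for ATlo against young. The last call ended with edgeR (adjusted p = 0.20), and it ended when young tagged 11 (0.29), young tagged 12 (0.18), ATlo tagged 10 (0.086) or ATlo tagged 12 (0.14) was left out, and that against ATlo ended without the 3 libraries tagged 12 (0.077). Rfc2 was lower against ATlo (-0.83, adjusted p = 0.00019) and against young (-0.70, adjusted p = 0.013) in the authors' deposited table. Rfc1, the large subunit, was lower against ATlo by a smaller amount in the authors' deposited table (-0.50, adjusted p = 0.011), a call that ended without AThi tagged 11 (adjusted p = 0.076), ATlo tagged 11 (0.074) or ATlo tagged 12 (0.10). Rfc3 had 518, 584 and 609 normalized counts in AThi, against 1070.1, 553 and 1154 in ATlo and 717 and 974 in young. One ATlo library, tagged 11, fell within the AThi range, and the authors' deposited value was -0.70 (adjusted p = 0.14); without that library the adjusted p was 0.0028. Per kilobase in ATlo, Rfc4 (989.9 to 1109.6 normalized counts) and Rfc1 (820.0 to 1006) had overlapping levels, and both were above Rfc5 (459 to 640.0).

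Chtf18, the large subunit of an alternative loader that acts in sister chromatid cohesion, had 17.6, 34.1 and 46.0 normalized counts in AThi, against 248, 138 and 162 in ATlo and 128 and 161 in young. It had the most negative of the 48 fold changes between old fractions in the authors' deposited table, -2.47 ± 0.51 (SE, adjusted p = 9.7e-05), and the value against young was -2.13 ± 0.57 (SE, adjusted p = 0.007). It also had the fewest reads, 12 in the lowest AThi library. Dscc1, a partner of Chtf18, was lower against ATlo in the authors' deposited table (-1.25, adjusted p = 0.0089), and did not pass without ATlo tagged 11 (adjusted p = 0.12) or AThi tagged 12 (0.054). Chtf8, the third specific subunit and outside the 48, did not pass in the authors' deposited table (-0.30, adjusted p = 0.26). Its count is uncertain, since 91.8% of its exonic bases are overlapped on the same strand by a second gene annotated under the same name.

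All 6 genes of single-strand binding and fragment joining were lower in AThi against ATlo, with a median log2 fold change of -1.06. Lig1, the ligase that seals Okazaki fragments, had 1121, 1679 and 2025 normalized counts in AThi, against 3519.9, 4858 and 4375 in ATlo and 3395 and 2885 in young. AThi lay below both other groups, and the authors' deposited table gave -1.40 ± 0.22 (SE, adjusted p = 3.2e-08) against ATlo and -0.96 ± 0.25 (SE, adjusted p = 0.0037) against young. Fen1, the nuclease that trims their flaps, had 433, 481 and 399 normalized counts in AThi, against 926, 891 and 1054 in ATlo and 788 and 746 in young. The groups of old cells did not overlap, and the authors' deposited values were -1.13 ± 0.19 (SE, adjusted p = 2.6e-07) against ATlo and -0.81 ± 0.21 (SE, adjusted p = 0.0048) against young. Without the 3 libraries tagged 12 the Fen1 log2 fold change against ATlo was -0.99, and its adjusted p was just above the threshold. Genes on the opposite strand, Tmem258 and Gm10143, overlap 84.2% of the exonic bases of Fen1; Tmem258 itself had a log2 fold change of -0.25 and was not called. Dna2, the nuclease and helicase that cuts long flaps, was lower against ATlo (-1.37, adjusted p = 0.023) and against young (-1.48, adjusted p = 0.042) in the authors' deposited table. The old fractions overlapped for Dna2, and its call against ATlo ended without AThi tagged 10 (adjusted p = 0.11), AThi tagged 11 (0.097), ATlo tagged 11 (0.11) or ATlo tagged 12 (0.17).

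The 3 subunits of replication protein A, which coats unwound single strands, were each lower in AThi than in ATlo, and Rpa2 was the one that also passed against young, a call that ended without the 3 libraries tagged 12 (adjusted p = 0.23) and with tags as a block in edgeR (0.099). Rpa2 had 1049.5, 1303 and 1147 normalized counts in AThi, against 2099, 1933 and 2073 in ATlo and 1944 and 2483 in young. Young and ATlo overlapped, AThi lay below both, and the authors' deposited table gave -0.80 ± 0.16 (SE, adjusted p = 5.4e-05) against ATlo and -0.92 ± 0.18 (SE, adjusted p = 3.3e-05) against young. Rpa3 had 615, 378 and 608 normalized counts in AThi, against 1081, 1107 and 1011 in ATlo and 802 and 886 in young. It was lower against ATlo (-1.0 ± 0.23 SE, adjusted p = 0.0007) and did not pass against young (-0.66, adjusted p = 0.13) in the authors' deposited table. Rpa1, the largest subunit, was lower against ATlo (-0.76, adjusted p = 0.007) and did not pass against young (-0.12, adjusted p = 0.94) in the authors' deposited table. The Rpa1 call against ATlo ended without AThi tagged 10 (adjusted p = 0.065) or ATlo tagged 11 (0.091). The difference between subunits was not tested.

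The fork protection genes were lower in AThi, with 4 of 4 called and a median log2 fold change of -1.39 in AThi against ATlo. Clspn encodes claspin, the mediator between stalled forks and the checkpoint kinase CHK1, and had 749, 989 and 675 normalized counts in AThi, against 2071, 3367 and 2446 in ATlo and 1596 and 1559.7 in young. The 3 groups did not overlap, with young between the old fractions, and the authors' deposited table gave -1.71 ± 0.22 (SE, adjusted p = 9.4e-12) for AThi against ATlo, -0.97 ± 0.25 (SE, adjusted p = 0.0043) for AThi against young and 0.74 (adjusted p = 0.064) for ATlo against young. Tipin had 1066, 1104 and 870.4 normalized counts in AThi, against 2475, 2136 and 2415 in ATlo and 1925 and 1833 in young. Timeless, which forms a complex with TIPIN at the fork, had 138, 282 and 375 normalized counts in AThi, against 669, 718 and 896 in ATlo and 519 and 508 in young. AThi was below ATlo and young in every library for both. In the authors' deposited table Tipin was lower against ATlo (-1.21 ± 0.16 SE, adjusted p = 3.6e-12) and young (-0.89 ± 0.17 SE, adjusted p = 2.8e-05), while Timeless was lower against ATlo (-1.52 ± 0.35 SE, adjusted p = 0.00054) and did not pass against young (-0.95, adjusted p = 0.16). Wdhd1, the hub that couples polymerase alpha to the helicase, had 859, 889.7 and 1197 normalized counts in AThi, against 2306, 2439 and 2356 in ATlo and 2572 and 2167 in young. Young and ATlo overlapped, and the authors' deposited log2 fold change of AThi was -1.27 ± 0.17 (SE, adjusted p = 1.1e-10) against ATlo and -1.27 ± 0.19 (SE, adjusted p = 1.2e-08) against young.

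Of 4 chromatin assembly genes, Atad2 and Slbp were lower in AThi against ATlo and both subunits of chromatin assembly factor 1 did not pass; the median log2 fold change was -0.78. Atad2, a bromodomain ATPase bound to newly made chromatin, had 5725, 4010.1 and 5636 normalized counts in AThi, against 10458, 12499 and 12720.1 in ATlo and 9208 and 11512 in young. Slbp, which binds the stem-loop of replication histone mRNAs, had 867, 1554 and 1448 normalized counts in AThi, against 2279, 2832 and 2617 in ATlo and 2645 and 2463 in young. Both were lower in AThi, below every young and ATlo library. The authors' deposited table gave -1.22 ± 0.17 (SE, adjusted p = 1.6e-10) against ATlo and -1.02 ± 0.19 (SE, adjusted p = 6.9e-06) against young for Atad2, and -1.0 ± 0.22 (SE, adjusted p = 0.0003) and -0.98 ± 0.25 (SE, adjusted p = 0.0027) for Slbp in the same order. Chaf1a, the large subunit of chromatin assembly factor 1, had 1077, 1178 and 1094 normalized counts in AThi, against 1269, 1762 and 1912 in ATlo and 1230.0 and 1525 in young. The old fractions did not overlap, and the authors' deposited value of -0.56 ± 0.20 (SE, adjusted p = 0.057) just missed the threshold. With tags as a block the adjusted p of Chaf1a was just below 0.05 in DESeq2 and 0.17 in edgeR. Ubxn6 overlaps 52.5% of the exonic bases of Chaf1a on the opposite strand and had a log2 fold change of -0.13. Chaf1b, the middle subunit of the same complex, had 1303, 1467 and 2310.0 normalized counts in AThi, against 1558, 2068 and 1771 in ATlo and 1119.9 and 1286 in young. Its old fractions overlapped, the AThi library tagged 12 had the highest value of all 8, and the authors' deposited values were -0.09 (adjusted p = 0.91) against ATlo and 0.49 (adjusted p = 0.39) against young. Leaving out single libraries moved the Chaf1b log2 fold change against ATlo between -0.38 and 0.07, and the sign changed for none of the other 47 genes.

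Ung, the glycosylase that removes uracil from DNA, had 228, 289.6 and 356 normalized counts in AThi, against 1546, 1439 and 1328 in ATlo and 1273 and 930.3 in young. Each AThi value was far below those of every other library, and the ATlo values were all above the young values. The authors' deposited table gave -2.30 ± 0.23 (SE, adjusted p = 1.8e-20) against ATlo, -1.92 ± 0.26 (SE, adjusted p = 1.5e-11) against young and 0.38 (adjusted p = 0.52) for ATlo against young. Only Chtf18 had a more negative log2 fold change between the old fractions among the 48.

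**Figure D4:**
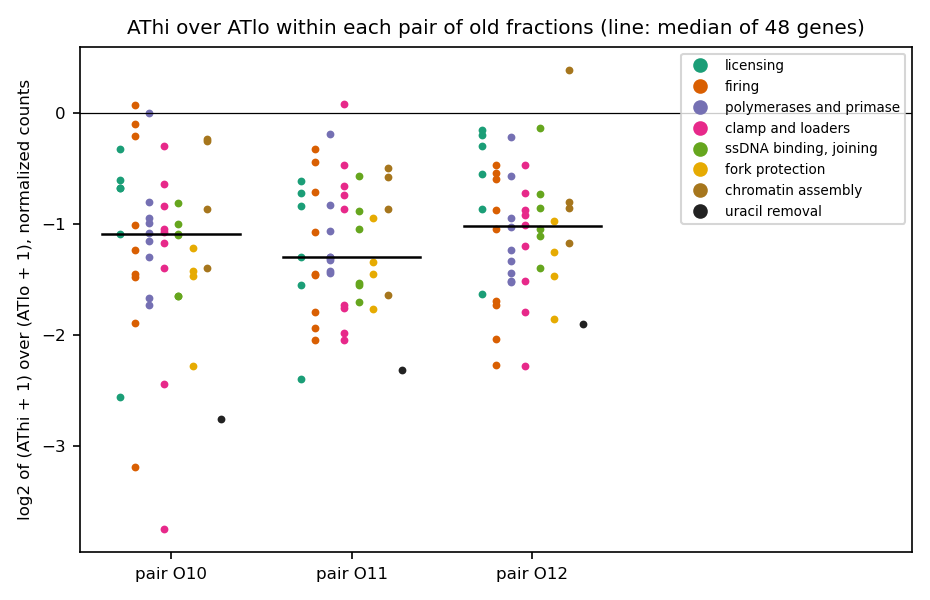
Each point is 1 of the 48 genes in 1 of the 3 pairs of AThi and ATlo libraries that share a tag, coloured by step; the y axis is the log2 ratio of AThi to ATlo normalized counts with a pseudocount of 1, and black lines are medians. The medians lie at -1.09, -1.30 and -1.02, and the points above 0 are Gins4, Rfc3 and Chaf1b in 1 pair each.

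Of a further list of 40 replication genes outside the 48, 39 were in the table. In the authors' deposited table, 16 of 39 (41.0%) were lower and 0 higher in AThi against ATlo, with a median log2 fold change of -0.45; at an unadjusted p below 0.05, 22 were lower and 0 higher, and edgeR called 10 lower and 0 higher. Against young, 12 were lower and 0 higher in AThi, and in ATlo Top2a was higher and 0 were lower; edgeR called 6 and 0. At an unadjusted p below 0.05, 21 were lower and 1 was higher in AThi against young, and 2 were lower and 6 higher in ATlo against young. No share of all genes at that unadjusted threshold is given beside the counts of this list. The lowered genes with the smallest adjusted p were Top2a, the decatenating topoisomerase (-1.31, adjusted p = 1.6e-23), Hells, a chromatin remodeller (-1.62, adjusted p = 2.2e-13), and Dtl, the PCNA-dependent adaptor for CDT1 destruction (-1.20, adjusted p = 2.3e-13), in the authors' deposited table. They were followed there by Atad5, which unloads PCNA (-1.39, adjusted p = 2e-12), Rnaseh2b, a subunit of the RNase that removes ribonucleotides (-1.48, adjusted p = 5.5e-10), and Uhrf1, the reader of hemimethylated DNA (-1.96, adjusted p = 1e-09). The other 10 called lower were Topbp1, Asf1b, Nasp, Ssrp1, Supt16, Dnmt1, Tonsl, Mms22l, Esco2 and Cdca5.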

How the data were processed

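Bulk RNA sequencing libraries of sorted mouse HSCs were compared: 3 AThi, 3 ATlo and 2 young. Per the labels' protocols, each library started from roughly 10000 sorted cells and RNA with an integrity number above 9.0, collected over 2 sort days, and paired reads of 50 bases were aimed at 40 M per library. No source used here assigns libraries to sort days. Each sample is 1 library, and p-values measure the spread between these libraries.

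The tools named, per the submitters' processing notes, are STAR, featureCounts, DESeq2, FastQC and MultiQC, with build GRCm38. Their order and versions, the gene annotation and whether reads were counted by strand are not given in the sources used. The authors deposited, for each of 3 contrasts, the log2 fold change of each gene, its SE and Wald statistic (scores), raw and adjusted p-values, and the mean signal. The same tables hold a normalized signal for 8 libraries, called normalized counts here, which per the file headers carry a group and a tag. Tags do not match the labels' replicate numbers, so columns were matched to groups only. The authors' deposited table of upstream regulators was not used here.

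The normalized signal of the deposited tables is a scaled read count: in units of the smallest nonzero value of a library, 100% of values were whole to within 0.01. The main test is the DESeq2 Wald test that the authors deposited, adjusted by Benjamini-Hochberg over all genes, at a threshold of 0.05. A refit with group alone and no term for the mouse gave the same counts over all genes (793 lower and 621 higher in AThi against ATlo). The deposited SE and adjusted p of AThi against ATlo thus treat the paired old libraries as independent. Alternatives on the recovered reads were fitted in R 4.3.3 with DESeq2 1.42.0 and with edgeR 4.0.16 (quasi-likelihood test; limma 3.58.1 loaded with it); both were tested on simulated data. Tables were made with pandas 2.3.3 and numpy 2.4.6 in Python 3.11.15, and figures with matplotlib 3.10.9. Depth and any interval from it cover counting error only.

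The labels state that AThi and ATlo replicates are paired. Libraries of the old fractions that share a tag deviated together from their group means (r = 0.21, 0.16 and 0.37 over 13611 genes with a mean of at least 100.0 normalized counts), against -0.23 to 0.03 for other tags. Pairs were therefore taken from the tags, and a block by tag was fitted as an alternative. Between the old fractions this block stands for the mouse. In contrasts with young it joins libraries of different animals and is not a block for the mouse.

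Exon lengths and overlaps came from GENCODE M21 (GRCm38), with all exons of a gene merged, and promoter windows from RefSeq (GRCm38.p6). The members and lists were chosen with earlier results of these data known. All 48 genes are named. Library values are given, in each step, for up to 4 genes with the smallest adjusted p in AThi against ATlo, for every gene not called there, and for those called against young in the opposite direction or with the smallest adjusted p of their step. Of the other replication genes, the 6 with the smallest adjusted p and the ORC, Pold and Pole subunits are named with values. Chtf8, and the names of the other 10 called lower, were added after their values were seen. Dbf4b was not analysed here.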

Additional observations from a re-analysis of the deposited data

How the results depend on the processing

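The median log2 fold change of the 48 genes kept its sign and size in all settings run, with ranges of -1.20 to -1.07 for AThi against ATlo, -0.97 to -0.82 for AThi against young and 0.21 to 0.31 for ATlo against young. A refit in DESeq2, TMM factors, a filter at a mean of 10 normalized counts and no independent filtering left the calls of the 48 genes as deposited. With edgeR, 21 genes were lower in AThi against ATlo, 14 in AThi against young and 0 were higher in ATlo against young; among the other replication genes 10 and 6 were lower and 0 higher. Over all genes, edgeR called 280 in AThi against ATlo, 60 of them higher, against 1414 and 621 in the authors' deposited table; the cause was not tested.

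With the replicate block (the pairing by tag) in DESeq2, 38 genes were lower in AThi against ATlo and 25 in AThi against young, and 5 were higher in ATlo against young, with 3 of the other replication genes higher there. With the replicate block in edgeR, 20 and 10 were lower and 0 higher; of the other replication genes, 4 were lower in AThi against young and 0 higher in ATlo against young. Tags shared between young and old libraries come from different animals. Over all genes, the block in DESeq2 called 986 lower in AThi against ATlo and 361 in AThi against young. The block in edgeR called 228 and 45 of all genes lower, in the same order. In ATlo against young, the block called 546 of all genes higher in DESeq2 and 80 in edgeR.

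Leaving out single libraries gave 31 to 38 genes lower in AThi against ATlo, 16 to 28 in AThi against young and 0 to 3 higher in ATlo against young; for the other replication genes the ranges were 14 to 16 lower, 6 to 15 lower with 0 to 1 higher, and 0 to 3 higher with 0 to 1 lower. Without the 3 libraries tagged 12, 14 genes were lower in AThi against young and 1 was higher in ATlo against young, with 2 of the other replication genes higher there. The lowest read counts, 12 for Chtf18 and 48 for Gins1, limit the precision of those 2 genes.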

Other observations

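The marker lists for other cell types that are not described above had these sums of normalized counts. The megakaryocyte and platelet list summed to between 9807 and 11563 in AThi, between 9993 and 14536 in ATlo, and 3875 and 4499 in young HSCs, with 0 of 7 genes called between AThi and ATlo and Itga2b, Gp1ba and Vwf higher in both old fractions than in young. The T and NK cell list summed to between 1826 and 3170.0 in AThi, between 1287 and 1464 in ATlo, and 823 and 902 in young HSCs. The erythroid list summed to between 279.6 and 1902 in AThi, between 783 and 4052 in ATlo, and 1605 and 4902 in young HSCs, with Hba-a1, Hba-a2 and Car1 at 0 in some library. The monocyte list summed to between 8469 and 10384 in AThi, between 8850.1 and 9053 in ATlo, and 9753 and 10019 in young HSCs. The stromal list summed to between 1813 and 3047 in AThi, between 1799 and 1957 in ATlo, and 1421 and 2102 in young HSCs.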
